A study of Mus musculus with 2 samples.

Results

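Claudins and the other genes of cell junctions and cell polarity were followed in mouse nephron progenitor cells with and without deletion of p53. The genes were chosen by symbol among the protein-coding rows of the deposited table, and 46 of its 10617 distinct symbols matched. They are 14 claudins, 6 tight junction scaffolds and other tight junction membrane proteins, 12 members of the polarity complexes, 3 catenins of adherens junctions, 4 desmosome genes and 5 connexins. The symbol rule also took in 2 genes whose names give them no junction role, Dscc1, of sister chromatid cohesion, and Dscaml1, a neural cell adhesion gene. The mouse gene annotation holds 88 protein-coding symbols of this pattern, and the 42 outside the table are not analysed here.

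Epithelial cells are joined and sealed by several kinds of junction. Claudins form the strands of tight junctions, where each claudin sets which ions and solutes pass between cells, and zonula occludens proteins tie the strands to actin. Catenins link cadherins to actin at adherens junctions, desmosomes anchor intermediate filaments, connexins form channels between neighbouring cells, and the Par, Crumbs and Scribble complexes tell the apical from the basal side. Nephron progenitors are mesenchymal cells of the embryonic kidney that become epithelial when they form a nephron, so the makeup of their junctions is remodelled on that path.

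The knockout group (KO) was Six2CreGFP+;p53f/f, in which a Cre fused to GFP under control of the progenitor gene Six2 deletes Trp53, which codes for p53, from floxed alleles. The wild-type group (WT) was Six2CreGFP+;p53+/+, so both groups carried the Cre transgene. Cells were sorted by flow cytometry from kidneys at embryonic day 15.5, on a mixed CD1 and C57BL background, and each group had 1 RNA library, so no difference has a replicate check and p-values are not given. The number of embryos behind each library is not given in the sources used here. Levels are read densities that behave as RPKM, reads scaled to gene length and library size, so they can be compared between genes. Steps in the deposited fold changes correspond to about 85600000 reads in KO and about 91200000 reads in WT. Differences are log2(KO + 1) minus log2(WT + 1), so a negative value means lower in KO, and the pseudocount shrinks the difference of a gene near 0. Genes at or over the median density of the table, 7.30 RPKM, are called over the floor. Ratios are densities in KO over WT, with 95% exact intervals that cover counting error only.

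As a check of the labels, Trp53 was at 5.38 RPKM in KO and 33.9 RPKM in WT. Six2 was at 509 RPKM in KO and 482 RPKM in WT, and all 13 listed progenitor markers lay over the floor in a range of ratios from 0.681 to 1.28. Xist, expressed from the inactive X chromosome of female cells, was at 70.1 RPKM in KO and 15.7 RPKM in WT. The members Cldn2, Gjb1 and Dlg3 lie on the X chromosome, and the part of sex in their values was not tested. Fewer cells of a type and less RNA per cell cannot be told apart in such bulk libraries.

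The junction genes that these cells expressed most were similar in both libraries, while most claudins and the low-level members were lower in KO. Of the 46 members, 17 lay over the floor, of which 8 were higher and 9 lower in KO. Over the floor, 44.2% of all 5309 listed genes were higher and 55.8% lower, so the split of the members is near that of the table. None of the 17 was at least 1.5-fold higher and 2 were at least 1.5-fold lower, Cldn6 and Cldn5, where 0.659% and 2.41% of all listed genes over the floor passed those sizes. Their median difference was -0.09, against -0.07 for all genes over the floor. All 29 members under the floor were lower in KO, with a median ratio of 0.411, against 71.9% lower and a median ratio of 0.743 among all 5308 listed genes under the floor. By density ratio 20 of the 29 (69.0%) were at least 1.5-fold lower and the same count at least 2-fold lower, where 42.5% and 29.8% of the listed genes under the floor were. Over all 46 members 22 (47.8%) were at least 1.5-fold lower by density ratio, where 22.6% of all listed genes were. By the log2 difference with its pseudocount 10 were at least 1.5-fold lower and 0 at least 1.5-fold higher. Of all listed genes 5.49% and 0.951% passed those sizes. Every listed gene has a corrected p-value under 0.05 in the authors' deposited table, so a gene with few reads had to differ strongly to be listed, and the counts under the floor describe the listed genes only.

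**Figure D1:**
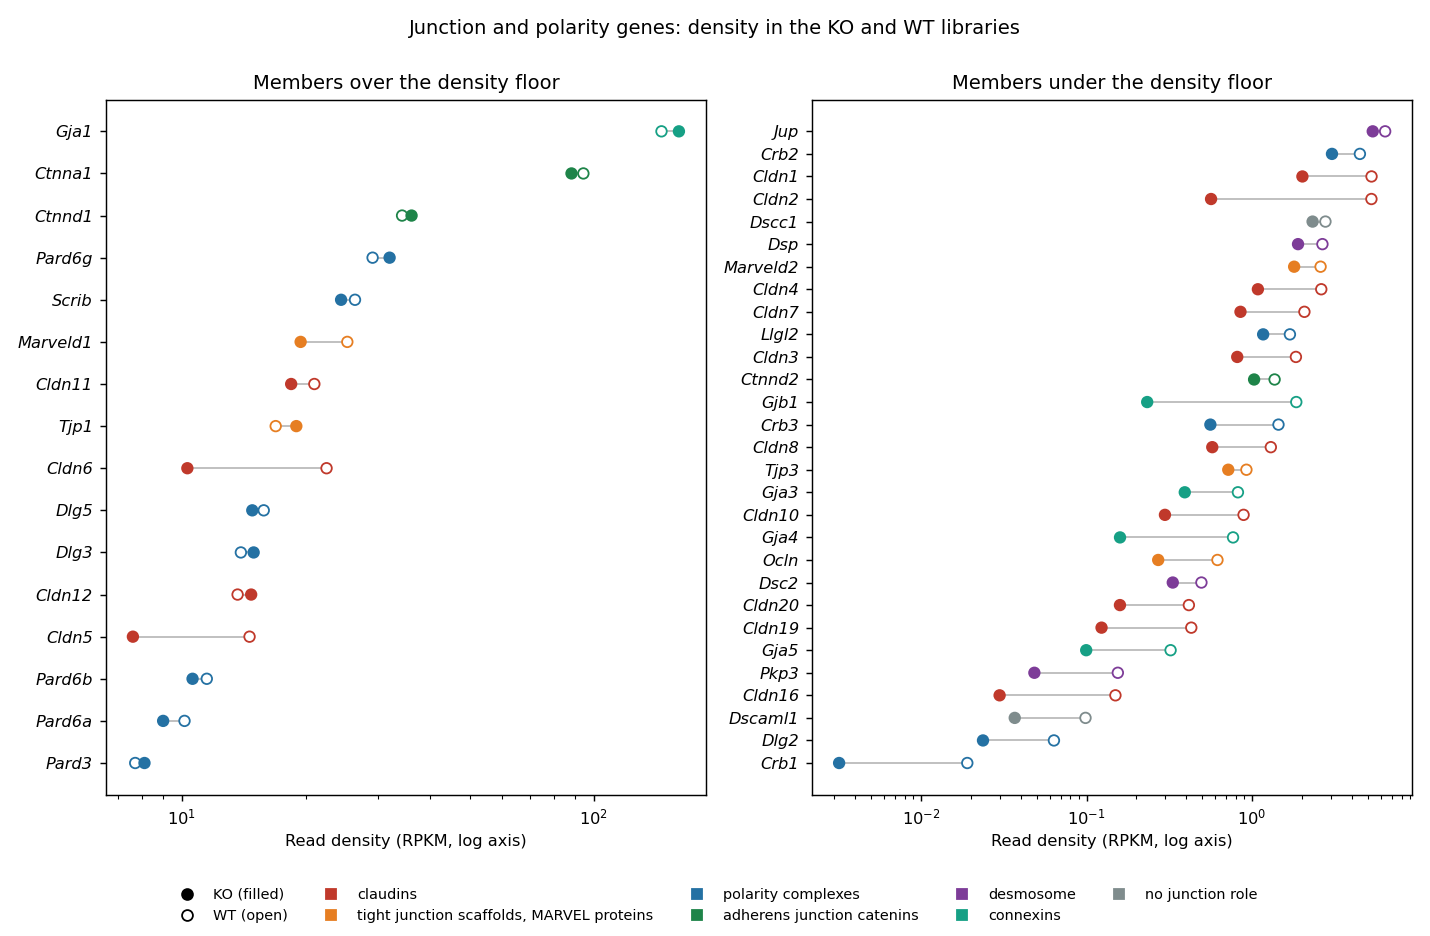
Read density in RPKM on a log axis for each member reported by name, with filled points for the KO library and open points for the WT library, coloured by role. Over the floor most pairs nearly touch, with Cldn6 and Cldn5 as the widest gaps, while under the floor every KO point lies left of its WT point.

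Connexins, the subunits of gap junction channels, held the single most abundant member. Gja1, a connexin of many mesenchymal and muscle cells, was at 161 RPKM in KO and 146 RPKM in WT, a ratio of 1.10 (95% exact interval 1.09 to 1.11), and was the highest of the 46 in both libraries. Its log2 difference of 0.14 was -0.02 after a correction for gene GC content and length, which is described with the GC results. Gja1 alone made up 99.5% of the listed connexin density in KO and 97.5% in WT. The other 4 connexins summed to 0.884 RPKM in KO and 3.76 RPKM in WT. Each was lower in KO, as all 29 members under the floor were. Gjb1, a connexin of liver and other epithelia, was at 0.233 RPKM in KO and 1.85 RPKM in WT, a ratio of 0.126 (0.0854 to 0.180), from 34 reads in KO and 288 in WT. Gja4 and Gja5 are connexins of endothelium. Gja4 was at 0.159 RPKM in KO and 0.768 RPKM in WT, and Gja5 at 0.0996 RPKM in KO and 0.322 RPKM in WT. Gja3, a connexin of the lens, was at 0.392 RPKM in KO and 0.821 RPKM in WT. The level of Gjb1 was 0.145% of that of Gja1 in KO and 1.27% in WT.

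Catenins were the next most abundant class and differed by less than 1.5-fold. Ctnna1, alpha catenin, which couples the cadherin complex to actin, was at 88.3 RPKM in KO and 94.3 RPKM in WT, a ratio of 0.936 (0.924 to 0.947). Ctnnd1, the delta catenin that holds cadherins at the cell surface, was at 36.1 RPKM in KO and 34.2 RPKM in WT, a ratio of 1.05 (1.04 to 1.07), but its log2 difference of 0.07 was -0.08 once corrected for GC and length. The exons of Ctnnd1 overlap those of the opposite-strand gene Gm28635 over 4482 bases in the gene annotation, and the counting strand is not given, so its level is uncertain. Ctnnd2, a delta catenin best known in neurons, was far lower at 1.03 RPKM in KO and 1.37 RPKM in WT.

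Genes of the polarity complexes were mostly level over the floor. Of the Par complex, Pard6g was at 31.9 RPKM in KO and 29.0 RPKM in WT, Pard6b at 10.6 RPKM in KO and 11.5 RPKM in WT, and Pard6a at 9.01 RPKM in KO and 10.1 RPKM in WT. These 3 code for forms of the Par6 adaptor of atypical protein kinase C, and together they summed to 51.6 RPKM in KO and 50.7 RPKM in WT. Pard3, the scaffold that recruits that kinase to junctions, was at 8.11 RPKM in KO and 7.70 RPKM in WT, with a log2 difference of 0.07 that was -0.10 after the correction. Scrib, the basolateral scaffold of the Scribble complex, was at 24.3 RPKM in KO and 26.3 RPKM in WT. Its Discs large partners differed little too, with Dlg5 at 14.8 RPKM in KO and 15.8 RPKM in WT and Dlg3 at 14.9 RPKM in KO and 13.9 RPKM in WT. The 7 polarity genes over the floor had log2 differences between -0.16 and 0.13.

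The Crumbs genes and the low-level polarity genes lay under the floor and were all lower in KO, as all 29 members there were. Crb2, an apical Crumbs protein that the kidney filter needs, was at 3.04 RPKM in KO and 4.48 RPKM in WT, a ratio of 0.678 (0.638 to 0.720). Crb3, the Crumbs form of most epithelia, was at 0.560 RPKM in KO and 1.44 RPKM in WT, a ratio of 0.388 (0.294 to 0.507). Llgl2, the epithelial form of the basolateral protein Lgl, was at 1.17 RPKM in KO and 1.69 RPKM in WT. Crb1 and Dlg2, better known in retina and neurons, were near the limit of detection, with about 4 reads in KO and 25 in WT for Crb1 and about 33 in KO and 94 in WT for Dlg2. The ratio of Crb1 was 0.168 (0.0431 to 0.494). The log2 differences of Crb1 and Dlg2, -0.02 and -0.06, were 0.05 and 0.02 once centred by subtracting the median over the floor, -0.07. The pseudocount holds both differences near 0, and with no pseudocount they were -2.57 and -1.42.

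Claudins were lower in KO in nearly every case. Of the 14 listed, 13 were below their WT level and 7 by at least 1.5-fold, where 63.9% and 5.49% of all listed genes were. On the ratio of densities with no pseudocount 12 of the 14 were at least 1.5-fold lower, where 22.6% of all listed genes were, and the median ratio was 0.413. All 10 claudins under the floor are among those 12, with the limit on listing given above. In sum the listed claudins were at 57.6 RPKM in KO and 91.9 RPKM in WT.

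The most abundant claudins split into 2 that were close and 2 that were lower in KO. Cldn11, the claudin of myelin and of the seal between Sertoli cells, was at 18.4 RPKM in KO and 20.97 RPKM in WT, a ratio of 0.879 (0.836 to 0.923). Cldn12, a widely expressed claudin, was at 14.7 RPKM in KO and 13.7 RPKM in WT, the single claudin higher in KO, and its log2 difference of 0.10 was -0.04 once corrected for GC and length. Cldn6, a claudin of embryonic epithelia (GRCm38 chromosome 17, as in the other positions given, 23679365 to 23682446, plus strand), was at 10.3 RPKM in KO and 22.4 RPKM in WT, a ratio of 0.459 (0.432 to 0.488) and a log2 difference of -1.05. Cldn5, the claudin of endothelium and podocytes (chromosome 16, 18776847 to 18778260, plus strand), was at 7.61 RPKM in KO and 14.6 RPKM in WT, a ratio of 0.521 (0.481 to 0.564) and a log2 difference of -0.86. After the correction Cldn6 and Cldn5 were still lower, at -0.96 and -0.73.

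The makeup of the claudin messages differed between the libraries, in shares that do not depend on how the libraries were scaled as a whole. Cldn11 and Cldn12 together held 57.6% of the listed claudin density in KO and 37.7% in WT. Cldn6 and Cldn5 together held 31.1% in KO and 40.3% in WT. The 10 claudins under the floor held 11.3% in KO and 22.0% in WT. In KO the level of Cldn6 was 56.0% of that of Cldn11, whereas in WT it was 107% of it.

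**Figure D2:**
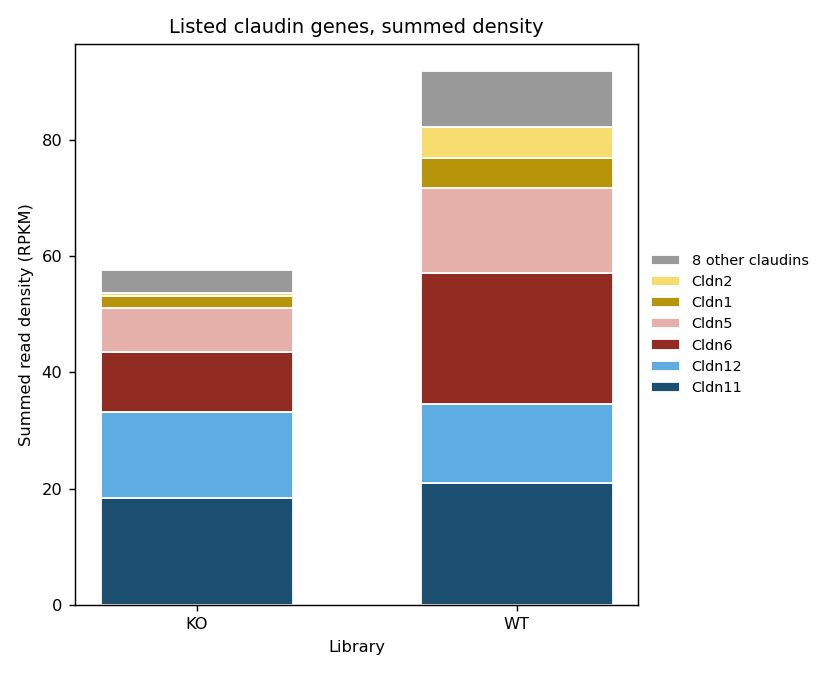
Summed read density in RPKM of the 14 listed claudin genes, with a stacked bar for the KO library on the left and the WT library on the right. The blocks of Cldn11 and Cldn12 are of similar height in both bars, and the total is 57.6 RPKM in KO and 91.9 RPKM in WT.

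Claudins under the floor included several of the mature nephron. Cldn2, which forms the cation and water pore of the proximal tubule (chromosome X, 139800828 to 139811386, plus strand), was at 0.565 RPKM in KO and 5.26 RPKM in WT, from 161 reads in KO and 1595 in WT. Its ratio of 0.108 (0.0909 to 0.127) and its log2 difference of -2.00 were the lowest of the 46 members. Cldn1, a barrier claudin of skin and of the capsule around the glomerulus (chromosome 16, 26356642 to 26371841, minus strand), was at 2.01 RPKM in KO and 5.27 RPKM in WT, a ratio of 0.382 (0.353 to 0.414). Cldn10, a claudin with pore forms in the proximal tubule and the thick ascending limb, was at 0.298 RPKM in KO and 0.888 RPKM in WT, from about 66 reads in KO and 210 in WT.

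Cldn4, Cldn7, Cldn3 and Cldn8, claudins of the distal nephron and collecting duct, were lower in KO. Cldn4 was at 1.08 RPKM in KO and 2.62 RPKM in WT, Cldn7 at 0.851 RPKM in KO and 2.07 RPKM in WT, Cldn3 at 0.814 RPKM in KO and 1.84 RPKM in WT, and Cldn8 at 0.575 RPKM in KO and 1.30 RPKM in WT. Their ratios lay between 0.411 and 0.443. Cldn16 and Cldn19, which work together in the thick ascending limb to let calcium and magnesium through, were barely detected. Cldn19 had 45 reads in KO and 167 in WT, a ratio of 0.287 (0.202 to 0.401), and Cldn16 had 3 reads in KO and 16 in WT, a ratio of 0.200 (0.0373 to 0.698). Cldn20 had 9 reads in KO and 25 in WT.

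Members that neighbour each other on a chromosome formed 3 pairs, all of genes under the floor. Both genes of each pair were lower in KO, as all 29 members under the floor were. Their shared direction therefore says nothing about neighbours. Cldn4 and Cldn3 lie 39279 bases apart on chromosome 5 and had ratios of 0.414 and 0.442. Ocln and Marveld2 lie 43238 bases apart on chromosome 13 and had ratios of 0.439 and 0.692. Cldn1 and Cldn16, 91293 bases apart on chromosome 16, had ratios of 0.382 and 0.200, with the wide counting interval given for Cldn16.

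The promoters of the 3 lowest and the 2 highest members by log2 difference, among 21 with a single start in the RefSeq table, are shown so that members that differed most in either direction can be read side by side. They are the 250 bases before the RefSeq start in GRCm38.p6, read 5′ to 3′ on the strand of the gene, with capitals where any of 4 motifs was found on either strand. The motif of the TATA box was TATAAA. The box bound by the factor NF-Y was searched as CCAAT on both strands. The GC box, known to bind factors of the Sp family, was searched as GGGCGG on both strands. A half-site known to bind HNF1 factors of the kidney tubule was searched as GTTAAT on both strands.
Cldn2, chrX:139800558-139800807, plus strand: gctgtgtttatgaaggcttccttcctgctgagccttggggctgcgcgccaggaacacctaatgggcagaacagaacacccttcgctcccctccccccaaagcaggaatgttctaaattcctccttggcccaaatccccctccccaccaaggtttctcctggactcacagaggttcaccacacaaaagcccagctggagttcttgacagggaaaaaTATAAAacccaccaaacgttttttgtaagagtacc
Cldn1, chr16:26371840-26372089, minus strand: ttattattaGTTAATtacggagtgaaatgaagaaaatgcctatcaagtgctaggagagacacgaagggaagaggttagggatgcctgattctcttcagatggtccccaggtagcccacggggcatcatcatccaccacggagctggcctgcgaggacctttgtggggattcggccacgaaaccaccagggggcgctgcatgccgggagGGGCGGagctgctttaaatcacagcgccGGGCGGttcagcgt
Cldn6, chr17:23679115-23679364, plus strand: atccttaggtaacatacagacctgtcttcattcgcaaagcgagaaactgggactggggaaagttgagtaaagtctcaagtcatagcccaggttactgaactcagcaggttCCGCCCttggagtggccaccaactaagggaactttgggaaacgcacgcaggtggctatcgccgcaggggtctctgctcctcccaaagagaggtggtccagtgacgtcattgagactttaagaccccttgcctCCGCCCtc
Tjp1, chr7:65371245-65371494, minus strand: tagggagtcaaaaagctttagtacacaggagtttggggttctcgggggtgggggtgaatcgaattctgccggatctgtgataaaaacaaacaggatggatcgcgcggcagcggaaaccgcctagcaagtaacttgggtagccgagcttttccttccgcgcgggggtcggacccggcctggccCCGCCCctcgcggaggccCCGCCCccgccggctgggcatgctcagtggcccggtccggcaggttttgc
Gja1, chr10:56377050-56377299, plus strand: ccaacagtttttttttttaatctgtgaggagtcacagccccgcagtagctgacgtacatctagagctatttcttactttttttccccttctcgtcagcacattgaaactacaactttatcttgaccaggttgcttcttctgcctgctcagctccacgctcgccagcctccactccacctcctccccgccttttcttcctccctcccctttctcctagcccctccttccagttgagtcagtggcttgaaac
Cldn2 held a TATAAA and none of the other letters marked, and its GC content of 52.0% was near the median of 52.4% over all starts. In all, 7 of the 36 members matched held a TATAAA, or 19.4%, against 14.3% of the 27025 genes with a RefSeq start. Here and for the other motifs, a gene was counted where any of its starts held the letters. Only 21 of the 36 members have a single start, while the 27025 genes have 32851 starts in all. A gene with more starts has more chances of a match, and the part of this in the shares was not tested. Cldn1 held a GTTAAT, as did 4 of the 36 members in all (11.1%, against 7.49% of all genes), and its GC box appeared 2 times. A GC box was found in 23 of the 36 members, or 63.9%, against 35.4% of all genes, and Cldn6 and Tjp1 held 2 each while Gja1 held none. The CCAAT letters were in 47.2% of the members and 37.5% of all genes. A p53 half-site pattern was in 7 of the 36 members (19.4%, against 8.20% of all genes), which were Cldn16, Cldn5, Crb2, Dsp, Gja3, Pard3 and Tjp1. Of these 7, 2 were higher in KO, Pard3 and Tjp1. A match of letters is a description and not a binding site.

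Tjp1 was close in both libraries, and the membrane proteins that join the claudins were lower in KO. Tjp1, the first zonula occludens protein, was at 19.0 RPKM in KO and 16.9 RPKM in WT, a ratio of 1.12 (1.09 to 1.15). Once corrected for GC and length, the log2 difference of Tjp1, 0.16 before, was 0.00. Tjp3, the form found mainly in epithelia, was at 0.718 RPKM in KO and 0.924 RPKM in WT. Marveld1, a MARVEL protein related to occludin, was at 19.4 RPKM in KO and 25.2 RPKM in WT, a ratio of 0.770 (0.747 to 0.794). Marveld2, tricellulin, which seals the points where 3 cells meet, was at 1.795 RPKM in KO and 2.59 RPKM in WT. Ocln, occludin, was at 0.271 RPKM in KO and 0.618 RPKM in WT, a ratio of 0.439 (0.343 to 0.557).

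Desmosome genes lay under the floor and all 4 were lower in KO, as all 29 members under the floor were. Of all listed genes under the floor 71.9% were lower. Jup, plakoglobin, which serves both desmosomes and adherens junctions, was at 5.36 RPKM in KO and 6.36 RPKM in WT, a ratio of 0.841 (0.802 to 0.883). Dsp, desmoplakin, which ties desmosomes to keratin filaments, was at 1.89 RPKM in KO and 2.66 RPKM in WT. The desmosomal cadherin gene Dsc2 was at 0.332 RPKM in KO and 0.494 RPKM in WT, and the plakophilin gene Pkp3 at 0.0484 RPKM in KO and 0.155 RPKM in WT. Of the 2 genes with no junction role, Dscc1 was at 2.32 RPKM in KO and 2.77 RPKM in WT, and Dscaml1 had about 28 reads in KO and 80 in WT.

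**Figure D3:**
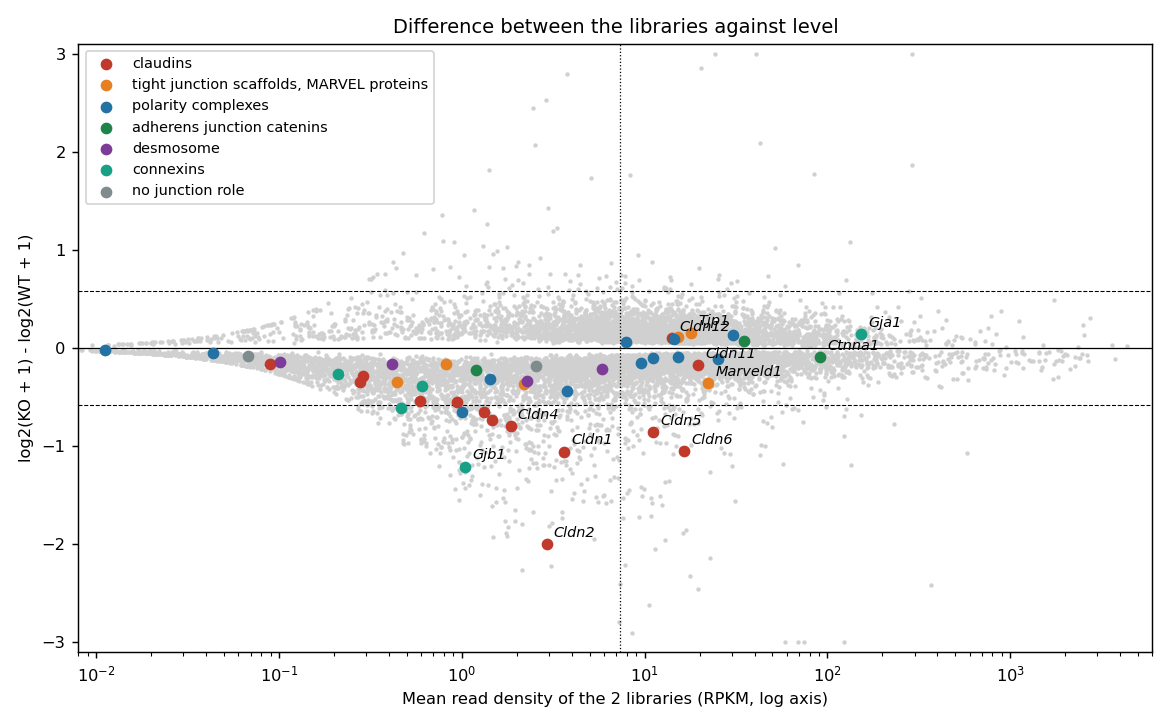
Log2 difference, KO minus WT on densities with a pseudocount of 1, against the mean density of both libraries on a log axis, with listed genes in grey and members coloured by role. The dotted line is the floor of 7.30 RPKM, the dashed lines are 1.5-fold, and grey points beyond 3 are drawn at the edge. Members right of the floor lie near 0 except Cldn6, Cldn5 and Marveld1.

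Within bands of density the members under the floor could be set against listed genes of like level. From 1 RPKM to the floor, 14 of 14 members were lower in KO and 7 of the 14 had a ratio at least 1.5-fold lower, where 63.4% and 18.2% of the 2995 listed genes did. From 0.1 to 1 RPKM, 9 of 11 members (81.8%) had a ratio at least 1.5-fold lower, where 71.4% of the 1720 listed genes did, a share close to that of the table. Both shares rest on listed genes, with the limit on listing given above.

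Partner genes of these complexes that are not members lay on both sides of their WT level. Of 68 listed partners, 37 lay over the floor, where 20 were higher and 17 (45.9%, against 55.8% of listed genes over the floor) lower in KO, and 1 was at least 1.5-fold lower. That gene was Vim, vimentin, the intermediate filament protein of mesenchyme, at 37.3 RPKM in KO and 61.3 RPKM in WT. All 13 stromal markers were lower as well, where 63.9% of all listed genes were, with a sum of 138 RPKM in KO and 304 RPKM in WT. Under the floor 24 of 31 partners (77.4%) were lower, where 71.9% of all listed genes under the floor were. After the GC and length correction 25 of the 37 partners over the floor were lower. The share of listed genes over the floor with a gene model was then 73.0%. Partners of the polarity complexes had 14 of 21 higher and 7 (33.3%) lower, against 63.9% of all listed genes lower. After the correction 13 of the 21 were lower. The most different over the floor was Lin7c, of the Crumbs scaffold, at 39.7 RPKM in KO and 29.6 RPKM in WT. Partners of tight junctions had 9 of 12 lower, with the adhesion receptor Cxadr the most different over the floor at 17.4 RPKM in KO and 14.2 RPKM in WT. Partners of adherens junctions had 12 of 18 (66.7%) lower, near the 63.9% of all listed genes, with the actin-binding gene Lima1 at 6.58 RPKM in KO and 9.43 RPKM in WT. Panx1, a pannexin channel gene, was the single listed pannexin, at 17.8 RPKM in KO and 16.2 RPKM in WT.

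Cadherins and their catenin lay on both sides of their WT level. Ctnnb1, beta catenin, was at 192 RPKM in KO and 176 RPKM in WT, and the mesenchymal cadherin gene Cdh11 was at 118 RPKM in KO and 111 RPKM in WT. Cdh1, E-cadherin, was at 1.44 RPKM in KO and 3.33 RPKM in WT, and the tubule cadherin gene Cdh16 at 1.92 RPKM in KO and 6.06 RPKM in WT. Cdh2, Cdh4 and Cdh6 had ratios of 1.13, 1.12 and 1.12, and Cdh3 a ratio of 0.719. All 7 partners of desmosomes and keratins, Vim included, were lower, where 63.9% of all listed genes were, with Krt8 at 1.88 RPKM in KO and 5.41 RPKM in WT. Of 9 genes listed for the epithelial programme, 6 (66.7%) were lower, a share near that of the table. Epcam, an epithelial adhesion gene, was the most different over the floor at 7.01 RPKM in KO and 10.6 RPKM in WT. Among factors known to repress the epithelial state, Twist1, Snai1 and Zeb2 had ratios of 0.342, 0.895 and 0.829 and Zeb1 a ratio of 1.08. Grhl1 and Ovol1, known to promote that state, had ratios of 1.38 and 1.20. On the same list Esrp1 and Esrp2 went the other way, with ratios of 0.401 and 0.568. Grhl1, Ovol1, Esrp1 and Esrp2 all lay under the floor, as did Twist1, Snai1 and Zeb2, while Zeb1 lay over it.

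The deposited functional terms gave a wider view of the same structures. Among listed genes outside the 46, 38 had the term for the tight junction, with 20 higher and 18 (47.4%) lower in KO. Of all listed genes 63.9% were lower. After the GC and length correction 27 of the 38 were lower, as were 8008 of the 10508 listed genes with a gene model. The term for the apical plasma membrane marked 124 such genes, of which 101 (81.5%) were lower, against 63.9% of all listed genes. At least 1.5-fold lower were 25 of them, where 5.49% of all listed genes were. Over the floor, 27 of 42 such genes (64.3%) were lower, against 55.8% of listed genes over the floor.

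Markers of other and of more mature kidney cells were mostly lower in KO, as the low-level members were. Of all listed genes 63.9% were lower. Under the floor, where most of these markers lay, 71.9% were, with the limit on listing given above. All 11 listed tubule markers were lower in KO and summed to 12.3 RPKM in KO and 63.0 RPKM in WT, with ratios from 0.0472 to 0.524. Among them the proximal tubule genes Slc34a1 and Hnf4a were at 1.07 and 1.16 RPKM in KO and at 13.4 and 5.88 RPKM in WT. All 13 ureteric bud markers were lower and summed to 43.9 RPKM in KO and 58.6 RPKM in WT, with ratios from 0.269 to 0.922, and Cdh1, Epcam and Krt8 are on that list as well as among the partners. All 17 endothelial markers were lower too, at 56.0 RPKM in KO and 77.8 RPKM in WT, with ratios from 0.109 to 0.863, and all 7 podocyte markers, at 174 RPKM in KO and 306 RPKM in WT, with ratios from 0.0159 to 0.773. The podocyte sum is mostly Cdkn1c, which other cells express as well. Of 10 early nephron markers, 7 were lower, with a sum of 221 RPKM in KO and 222 RPKM in WT. No marker of these 5 lists was at 0 in either library.

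Set beside these lists, Cldn2 at a ratio of 0.108 and Gjb1 at 0.126 lay within the range of the tubule markers. Cldn3, Cldn4, Cldn7 and Cldn8 lay within the range of the ureteric bud markers, and Cldn5, Gja4 and Gja5 within that of the endothelial markers. These ranges overlap and do not tell the lists apart, since all 7 ratios also lay within the podocyte and the tubule ranges. The endothelial cadherin gene Cdh5 was at 0.313 RPKM in KO and 1.82 RPKM in WT, below Cldn5 in both libraries. Ramp2, of the same endothelial list, was at 43.8 RPKM in KO and 50.7 RPKM in WT, above Cldn5 in both. The comparison of levels thus depends on the marker. The part of these cells in the junction results was not tested. Leukocyte and erythroid markers were lower as well, 10 of 10 and 9 of 9, where 63.9% of all listed genes were. Of the erythroid genes, 1 was at 0 in KO.

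**Figure D4:**
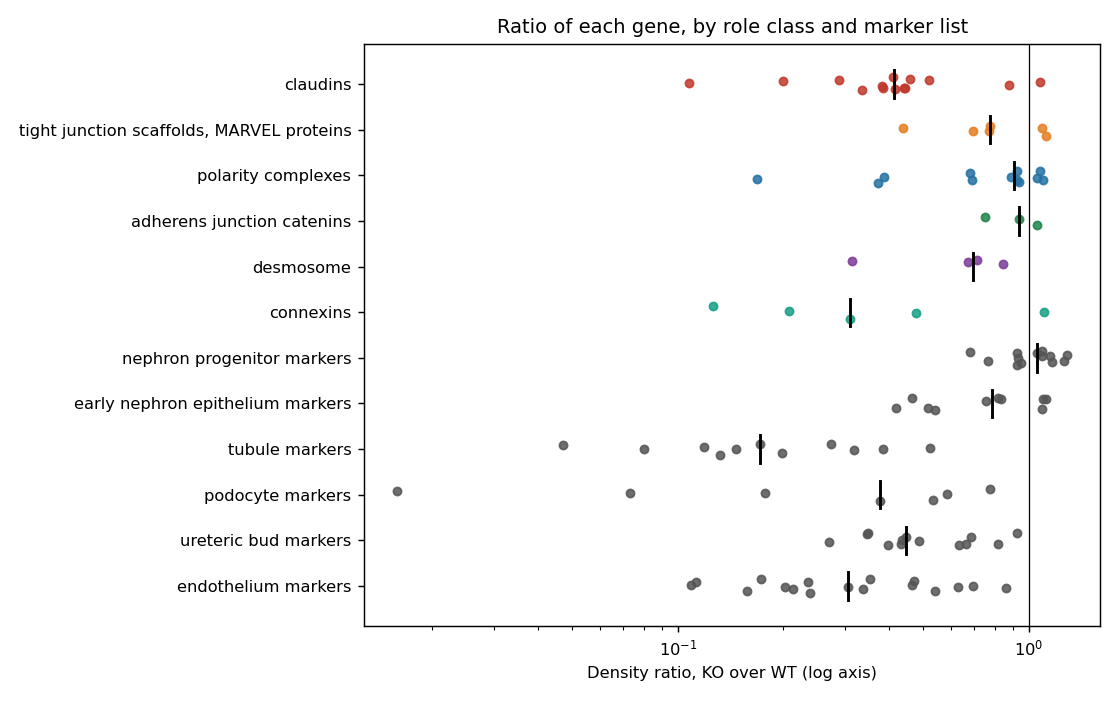
Ratio of density in KO over WT on a log axis for each listed gene, by role class of the members and by marker list, with a black bar at each median. Claudins and connexins spread from about 0.1 to just over 1, a range that overlaps those of the tubule, ureteric bud and endothelial markers, while progenitor markers lie around 1.

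Base composition moved with the differences between the libraries, and its part in the small ones was not tested beyond the correction given here. The log2 difference was lower at higher GC content over the floor, with a Spearman's rho of -0.68 over the 17 members and of -0.53 over 5263 listed genes, all from the same 2 libraries. With listed genes cut into 5 GC groups of like size, the members over the floor that were lower numbered 1 of 6 in group 2, 1 of 2 in group 3, 3 of 5 in group 4 and 4 of 4 in group 5, the richest in GC. The shares of all listed genes over the floor that were lower in those groups were 38.9%, 62.4%, 79.5% and 86.5%, which also grow with GC content. The correction subtracted the median of listed genes of like GC content and length, then added back the median over the floor, -0.07. It left 4 of the 8 higher members above 0, Pard6g, Tjp1 and Dlg3 among them, with Tjp1 at 0.00. In all, 13 of 17 were lower, against 73.0% of listed genes over the floor with a gene model. Because the median added back is below 0, Gja1 and Cldn12, at -0.02 and -0.04, still lay above the median of genes of like GC content and length. Under the floor, in group 1, the poorest in GC, 7 of 7 members were lower, Cldn1 and Cldn8 among them, where 40.7% of the listed genes were. Group 2 there held no member. In groups 3, 4 and 5 under the floor, 6 of 6, 4 of 4 and 12 of 12 members were lower. Most listed genes in those groups were lower too, at 76.5%, 88.0% and 89.9%. The claudin median of -0.60 was -0.56 after the correction, with 14 of 14 below 0. The median added back under the floor was -0.17. Cldn12 and Cldn16, at -0.04 and -0.11, lay above the median added back on their side of the floor.

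**Figure D5:**
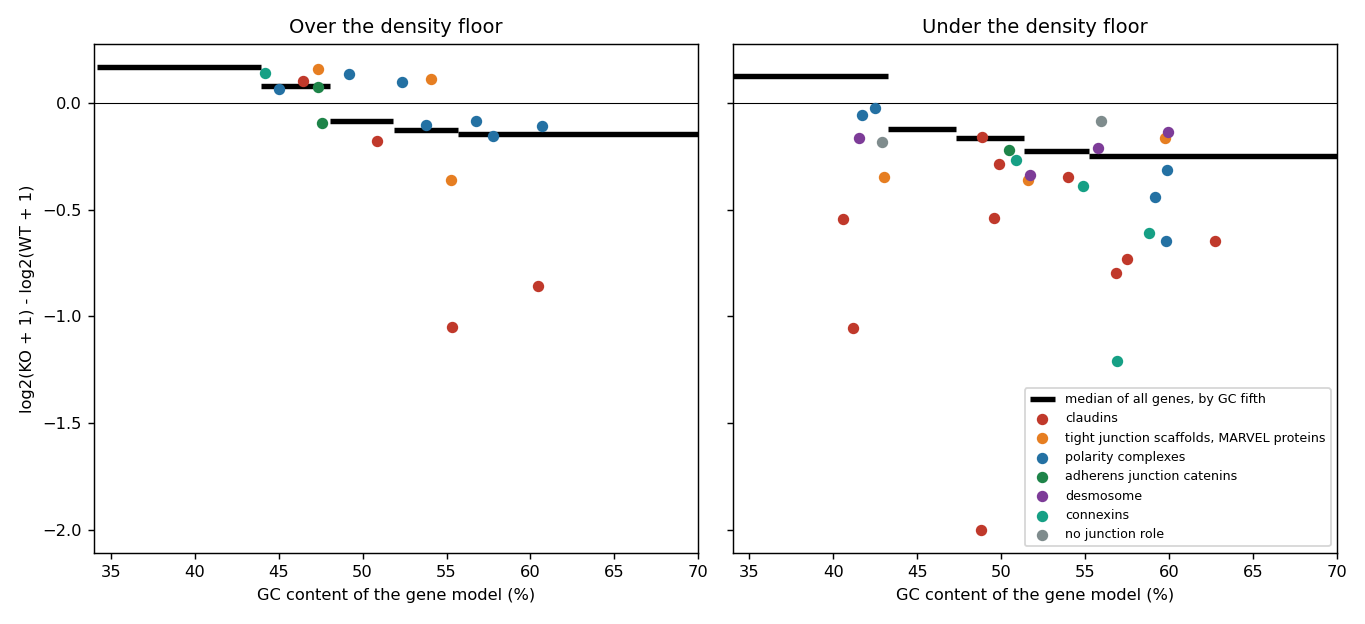
Log2 difference, KO minus WT, against GC content of the gene model for members over the floor on the left and under the floor on the right, coloured by role, with black bars for the median of all listed genes in each of 5 GC groups. Over the floor most members lie near the bars, and Cldn6 and Cldn5 lie far below them, while under the floor Cldn1, Cldn2 and Gjb1 do.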

How the data were processed

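RNA from sorted cells was sequenced, with 1 library for KO and 1 for WT. Per the submitters' processing notes, the tools named are CASAVA 1.8, Novoalign 2.08.02 and FastQC and the builds GRCm38 and mm10, with no role given. Counting rules, strand and multiple hits were not given in the sources used here. The authors' deposited table gives read densities by library, which behave as RPKM (a reading from the values), a p-value and a corrected p-value, an absolute fold ratio, and a signed fold score, negative where KO was lower. Only genes with a corrected p-value up to 0.0499827 are listed.

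The deposited folds of genes at 0 in 1 library are whole multiples of a step (70 of 75 for KO reads, 149 of 170 for WT reads, within 0.01 of a read), which with gene lengths of GENCODE vM21 gave the depths. Reads of 21 of the 46 members came out whole in both libraries; those of the others are rounded estimates. For 8 symbols on more than 1 row, the row of highest density was used. Intervals are exact (Clopper-Pearson, SciPy 1.17.1) on the share of reads; reads without molecular identifiers are not independent molecules. The size rule was 1.5-fold on log2 densities with a pseudocount of 1. The correction used 10 GC bins and 4 length bins, separately over and under the floor. It subtracted the median of the bin and added back the median of all genes on that side of the floor. Members are named, except 1 that is not reported here by name, as are the partners over the floor that pass 1.5-fold or else differ most in their list; other partners and markers were picked with their values in view. The members, lists and size rule were chosen with earlier results of these data known. Scripts (Python 3.11.15, pandas 2.3.3, NumPy 2.4.6) were tested on simulated data. Promoters and their starts are RefSeq's, for 36 of the 46 members. Alternatives were other pseudocounts, floors, scalings and member sets.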

Additional observations from a re-analysis of the deposited data

How the results depend on the processing

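No paired analysis was possible because each group has 1 library, and leaving out a library leaves no comparison. The density ratio with no pseudocount was chosen after seeing the data. Over the floor, the main counts were 9 lower and 8 higher of 17 members, 2 at least 1.5-fold lower, with a median of -0.09. With no filter on low density the lower count was 38 of 46, 10 at least 1.5-fold, with a median of -0.22. Among all 10617 listed genes 63.9% were lower and 5.49% at least 1.5-fold lower, with a median of -0.11. With the floor at the 75th percentile, 3 were lower, 3 higher and 0 at least 1.5-fold lower of 6 members, with a median of -0.0102. The GC and length correction left 4 higher. Centring gave a median of -0.0151, the authors' scaling -0.0330. A 2-fold rule left 1 lower, Cldn6. Without 7 claudins and connexins known from endothelium or ureteric bud, 1 was at least 1.5-fold lower, with a median of -0.0102.

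Of 14 claudins, 13 were lower and 7 at least 1.5-fold lower, with a median of -0.60. A pseudocount of 0.25 gave 11 and a median of -0.95, a pseudocount of 4 gave 4 and -0.25, and no pseudocount 12 and -1.28. A 2-fold rule gave 3. Without Cldn5, Cldn3, Cldn4, Cldn7 and Cldn8, 8 of 9 were lower and 3 at least 1.5-fold lower, with a median of -0.35, and Cldn11 and Cldn12 held 71.1% in KO and 49.8% in WT. For none of these was the cause tested. Single differences changed sign in 4 members under the correction (Gja1, Ctnnd1, Cldn12 and Pard3) and in 2 under centring (Dlg2 and Crb1). For Gja1 and Cldn12 the sign changed only through the median added back in the correction. Exons of 13 members overlap another gene by up to 499 bases, and those of Ctnnd1 by 4482. Depth limits the 14 members with fewer than 100 reads in KO.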
